A study of Mus musculus with 16 samples.

Results

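Cd28, Ctla4 and Icos lie next to each other on mouse chromosome 1, all on the plus strand, and were taken as 3 of the 26180 genes with a curated RefSeq transcript. On GRCm38.p6 (mm10), Cd28 spans chr1:60746388-60773359 with 4 exons, Ctla4 spans chr1:60909025-60915832 with 4 exons, and Icos spans chr1:60977914-61000320 with 5 exons. The locus was read from 50 kb before Cd28 to 50 kb past Icos (chr1:60696388-61050320, 354 kb), and 97 of the 214352 peaks of the 12 deposited lists touched it. A promoter peak is one that reached within 1 kb of an annotated transcription start site (TSS), a gene-body peak had its summit or midpoint in one of the 3 genes, and the remaining peaks are called intergenic.

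The chromatin came from CD8+ T cells isolated from OT1 spleens; OT1 mice carry a transgenic receptor that recognises an ovalbumin peptide. The labels give neither the age nor the number of the mice. The cells were activated for 48 h with plate-bound anti-CD3 (2 μg/ml), soluble anti-CD28 (2 μg/ml) and 20 ng/ml IL-2, then expanded in IL-2 for 3 days, with vehicle (Veh) or 0.5 μM of the irreversible LSD1 inhibitor GSK2879552 (GSK) present in both phases. Anti-CD28, which binds the product of one of the 3 genes, was thus given to Veh and GSK cells alike. ChIP-seq was made with antibodies to LSD1, H3K4me1, H3K4me2, H3K4me3, H3K27ac and Pol II, with 1 library per antibody and treatment, so no value below has a replicate error and no test between treatments was possible.

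CD28 and ICOS are costimulatory receptors of T cells, and CTLA4 is an inhibitory receptor that competes with CD28 for the ligands CD80 and CD86. CD28 is present on resting mouse T cells, whereas CTLA4 and ICOS are made after activation, and the 3 genes arose from a common ancestral gene. H3K4me3 and Pol II mark promoters in use, H3K4me1 marks enhancers, H3K27ac marks active promoters and enhancers, and LSD1 removes methyl groups from mono- and dimethylated H3K4.

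All 7 markers of CD8+ T cells (Cd3d, Cd3e, Cd3g, Cd8a, Cd8b1, Cd2 and Lck) had an H3K4me3 promoter peak in both treatments, whereas none of the 4 B-cell, 4 myeloid and 2 NK-cell markers had one. Of the 3 CD4+ T-cell markers only Zbtb7b had one. The lists of the 2 treatments differed in length, and most for H3K27ac (7410 peaks in Veh and 2751 in GSK) and H3K4me2 (15219 and 9437). The peak lists carry no read numbers. In the study's account of sequencing, the Veh libraries were the deeper ones for H3K27ac and H3K4me2 and, by a smaller margin, for LSD1. The GSK libraries were the deeper ones for H3K4me1 and Pol II and, by a smaller margin, for H3K4me3. Depth thus moves with treatment for every antibody. The study evened out read numbers by random sampling to compare signals, but the sources used here do not state that the deposited peaks were called on evened reads. The part of depth in the differences below was not tested.

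Each member promoter carried H3K4me1, H3K4me3 and Pol II in both treatments, and none carried H3K4me2 in either. LSD1 was present at the Cd28 promoter in both treatments, at the Icos promoter in Veh only, and at the Ctla4 promoter in neither. H3K27ac was present at the Ctla4 promoter in Veh only. Of the 18 pairs of gene and antibody, 12 had a promoter peak in Veh and 10 in GSK. Across the whole locus there were 51 peaks in Veh and 46 in GSK. They made 43 separate regions over all antibodies, 28 of them in both treatments, 4 in Veh only and 11 in GSK only. The 28 count any antibody, and at chr1:61046662-61047623 Veh had H3K4me1 and GSK had LSD1. Of the 11, 10 held H3K4me1 alone. Among H3K4me1 regions of the genome, 22.6% were in GSK only and 9.47% in Veh only. The split over all antibodies was not counted for the genome.

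**Figure D1:**
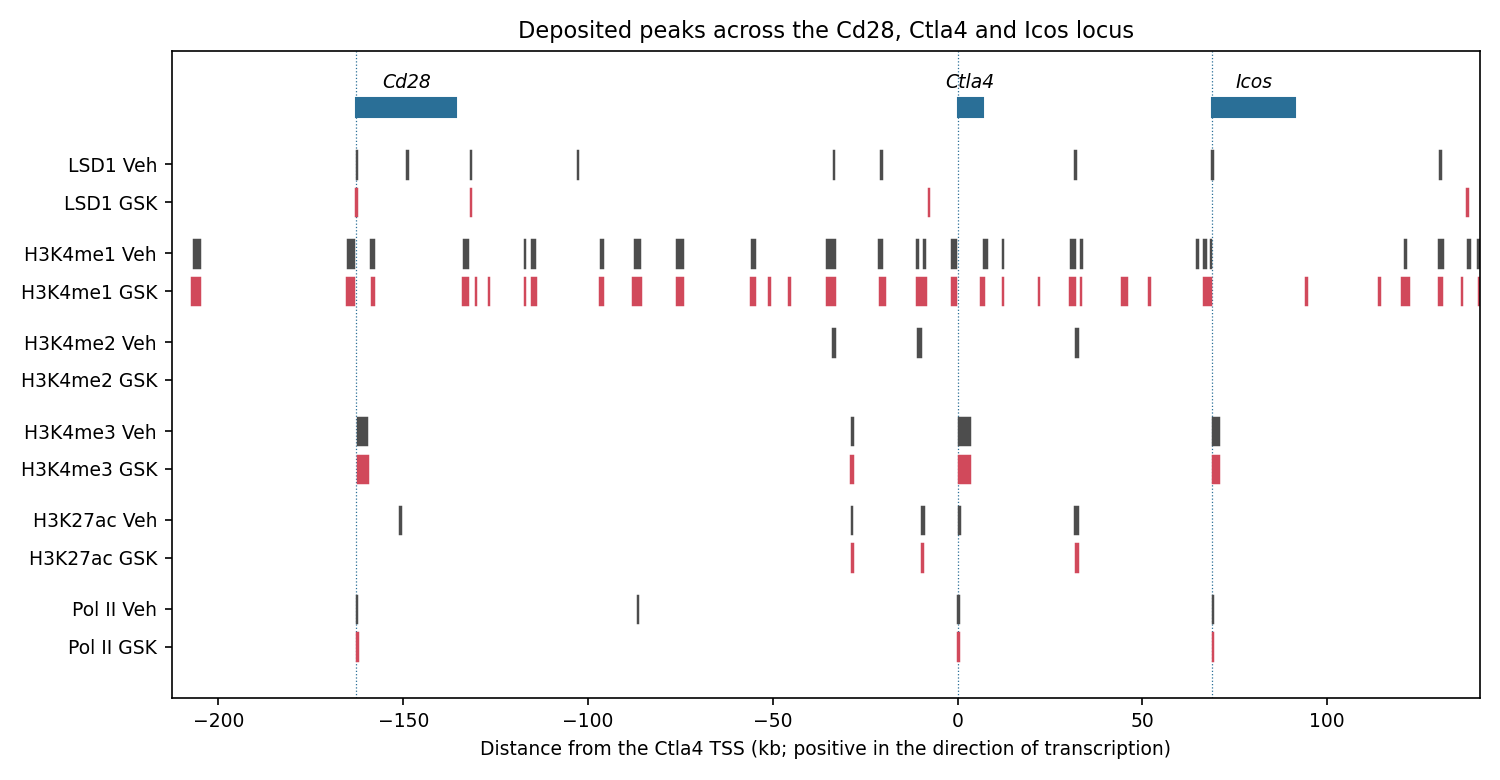
Peaks of the 12 lists drawn to scale against the distance from the Ctla4 TSS in kb, with Veh in grey, GSK in red, the 3 genes as blue bars and each TSS as a dotted line. The 3 promoters share H3K4me3 and Pol II in both treatments, LSD1 has 9 peaks in Veh and 4 in GSK, and H3K4me2 has 3 peaks in Veh and none in GSK.

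For comparison, of the 31603 curated promoters, 49.4% had H3K4me3 in Veh and 50.6% in GSK, and 28.3% had Pol II in Veh and 24% in GSK. H3K4me1 reached 29.4% of them in Veh and 35.7% in GSK, and LSD1 reached 35.2% and 40.7%. H3K4me2 reached 38.2% in Veh and 27.4% in GSK, and H3K27ac reached 20.3% and 8.51%. Both H3K4me3 and Pol II in both treatments, the state of all 3 members, held for 21.1% of promoters (6659). Among those 6659, LSD1 was present at 74.6% in Veh and 84.8% in GSK, so that the Ctla4 promoter belonged to the smaller share without it. Of the same promoters, 32.8% had no H3K4me2 in either treatment, and H3K27ac was present at 70.1% in Veh and 34.2% in GSK.

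The marks were laid out in the same order at all 3 genes. H3K4me1 ended upstream of the TSS, LSD1 where present and Pol II lay across it, and H3K4me3 began just downstream and ran into the gene. H3K4me3 started 90 bp past the TSS of Cd28 in both treatments, 38 bp (Veh) and 17 bp (GSK) past that of Ctla4, and 59 bp and 60 bp past that of Icos. The nearest H3K4me1 peak ended at -575 bp (Veh) and -656 bp (GSK) from the Cd28 TSS, at -341 bp and -313 bp from the Ctla4 TSS, and at -322 bp and -380 bp from the Icos TSS. No H3K4me3 reached upstream of the TSS at any of the 3 genes, and no H3K4me1 reached it from upstream. H3K4me3 wholly downstream of the TSS in both treatments was found at 9.59% of the promoters with H3K4me3 in both, and the full arrangement at 3.66% of the 6347 promoters with both marks in both treatments. The arrangement was looked for after it was seen at the members.

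**Figure D2:**
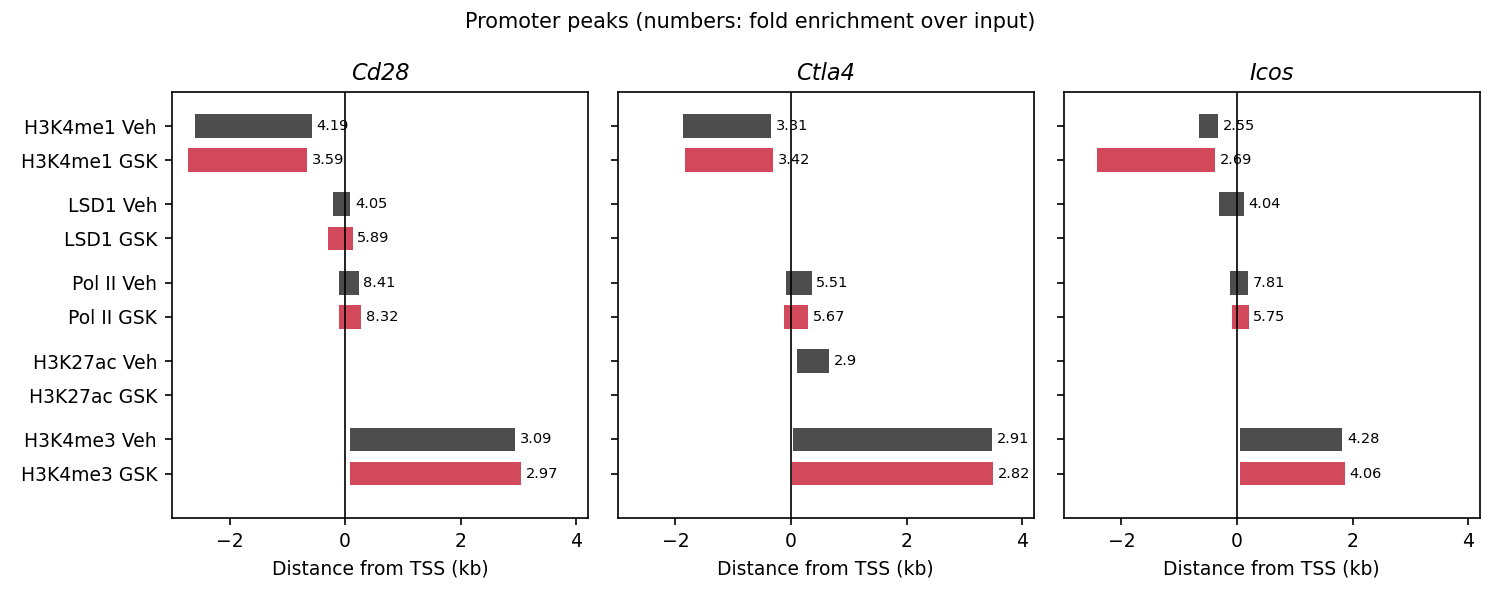
Extent of each promoter peak around the TSS (vertical line) of Cd28, Ctla4 and Icos in kb, positive in the direction of transcription, with Veh in grey and GSK in red and fold enrichment over input printed beside each peak. H3K4me1 lies upstream, Pol II and LSD1 lie across the TSS, and H3K4me3 extends downstream for 1.76 to 3.47 kb.

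Cd28, the costimulatory receptor engaged by the culture's own antibody, had the strongest Pol II peak of the 3 promoters. Its fold enrichment over input, as the authors' peak caller gave it, was 8.41 in Veh and 8.32 in GSK, at percentiles 89.9 and 95.1 of all promoters with a Pol II peak in the same list. Its −log10 p was 24.4 in Veh and 29.5 in GSK. The GSK to Veh ratio of fold was 0.989, while the median over the 6689 promoters with Pol II in both treatments was 0.811 and 82.2% of them had a lower fold in GSK. The Cd28 value therefore lay at percentile 80.8 of these ratios.

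H3K4me3 at Cd28 was wide and shallow. The peak covered 2.85 kb in Veh and 2.96 kb in GSK, which made it wider than or as wide as 98.6% and 98.9% of the peaks of the list. Its fold was 3.09 in Veh and 2.97 in GSK, at percentiles 2.57 and 2.04 of promoters with H3K4me3. Among the 262 Veh peaks within 10% of its width the median fold was 3.46, and Cd28 lay at percentile 17.6 of them.

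LSD1 at the Cd28 promoter was the one LSD1 promoter peak of the locus found in both treatments, and its values were the higher in GSK. The Veh peak (chr1:60746180-60746478) had a fold of 4.05 (−log10 p 7.82), and the GSK peak (chr1:60746091-60746518) a fold of 5.89 (−log10 p 13). The ratio of 1.45 stood at percentile 84.7 of the 9714 promoters with LSD1 in both treatments, whose median ratio was 1.15. H3K4me1 upstream of Cd28 went the other way, with a fold of 4.19 in Veh and 3.59 in GSK, a ratio of 0.857 at percentile 14.1 of the 8193 promoters with H3K4me1 in both (median 0.974).

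Inside Cd28 the peaks were few. A Veh LSD1 peak at chr1:60759651-60760193 (fold 3.18, −log10 p 4.46) and a Veh H3K27ac peak at chr1:60757880-60758541 (fold 2.79, −log10 p 6.18) lay in intron 1, 13.4 kb and 11.8 kb past the TSS, and neither was listed in GSK. H3K4me1 was found in intron 1 in both treatments at 4.27 kb past the TSS, with a fold of 2.57 in Veh and 2.32 in GSK. The intron 1 H3K27ac peak was among the weakest of its list, at percentile 0.715 by −log10 p.

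Icos, the inducible costimulatory receptor, had the lowest GSK to Veh ratio of Pol II among the 3 genes. The fold was 7.81 in Veh and 5.75 in GSK, with −log10 p of 22.5 and 15.8. The ratio of 0.736 lay at percentile 33.1 of all promoters with Pol II in both, between their lower quartile (0.696) and their median. A lower Pol II value in GSK was thus what most promoters showed in this pair of libraries.

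H3K4me3 at Icos was the narrowest and highest of the 3 genes. It covered 1.76 kb in Veh and 1.81 kb in GSK, with folds of 4.28 and 4.06 (−log10 p 40.9 and 39). The ratio of 0.947 was the lowest of the 3, beside 0.963 at Cd28 and 0.97 at Ctla4, and all 3 lay under the median of 1.01 for the 15509 promoters with H3K4me3 in both treatments, of which 41.1% had a lower fold in GSK. The differences of the 3 genes from that median were small, and their percentiles were 15.9 (Icos), 21.4 (Cd28) and 24.6 (Ctla4).

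The Icos promoter had an LSD1 peak in the Veh list and none in the GSK list. The Veh peak at chr1:60977610-60978030 had its summit at -26 bp from the TSS, a fold of 4.04 (−log10 p 7.53), values close to those of the Veh peak at Cd28, which was listed in GSK. Its −log10 q was 4.35, so that neither list held a peak at Icos when a −log10 q of at least 5 was required. LSD1 in Veh and not in GSK was found at 4.51% of all promoters. These were 1425 of the 11139 promoters with LSD1 in Veh. The Icos H3K4me1 peak touching the promoter window was 332 bp wide in Veh (fold 2.55) and 2.04 kb wide in GSK (fold 2.69), but the region as a whole had 2 peaks in Veh, 1176 bp in sum, and 1 in GSK. No LSD1, H3K4me1, H3K4me2 or H3K27ac peak had its midpoint or summit inside the Icos gene in either treatment.

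Ctla4, the inhibitory receptor gene, differed from both neighbours in Veh, where its promoter had H3K27ac and no LSD1. Its Pol II fold was the lowest of the 3 in both treatments, at 5.51 in Veh and 5.67 in GSK, with −log10 p of 18.3 and 24.4. Among promoters with a Pol II peak it stood at percentile 54.6 in Veh and 78.4 in GSK, but the promoters ranked differ between the lists, and the difference of 23.9 points fell to 10.1 when ranked by −log10 p. Its ratio of 1.03 lay at percentile 85.1 of the promoters with Pol II in both treatments. Ctla4 was the single member whose Pol II fold was not lower in GSK. At its 3′ end, H3K4me1 covered chr1:60915954-60916981 in Veh (fold 2.34), just past the gene, and chr1:60915177-60916243 in GSK (fold 2.51), with its midpoint in the last exon.

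The Ctla4 H3K4me3 peak was the widest of the locus. At 3446 bp in Veh and 3474 bp in GSK it was matched or exceeded by 71 Veh and 62 GSK peaks, itself included, and it ended 3483 bp and 3490 bp past the TSS of a gene of 6808 bp. Its fold of 2.91 in Veh and 2.82 in GSK was at percentiles 1.77 and 1.6 of promoters, yet at percentiles 50.5 and 51 among peaks within 10% of its width. Icos lay at percentiles 9.84 and 7.76 by fold among peaks as wide as its own. By −log10 p all 3 genes were low for their width, with Ctla4 at percentiles 14.3 (Veh) and 15.3 (GSK), Icos at 13.7 and 13.1, and Cd28 at 14.9 and 12.6.

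H3K27ac at Ctla4 (chr1:60909120-60909690) lay from 95 bp to 665 bp past the TSS in Veh, with a fold of 2.9 (−log10 p 9.53). Such a peak in Veh and not in GSK was found at 12.1% of all promoters. These were 3821 of the 6405 promoters with H3K27ac in Veh. The GSK list held 20 H3K27ac peaks within 0.25 of this fold and the Veh list 609, and when the Veh list was cut to the length of the GSK list by −log10 p, the Ctla4 peak was no longer in it.

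**Figure D3:**
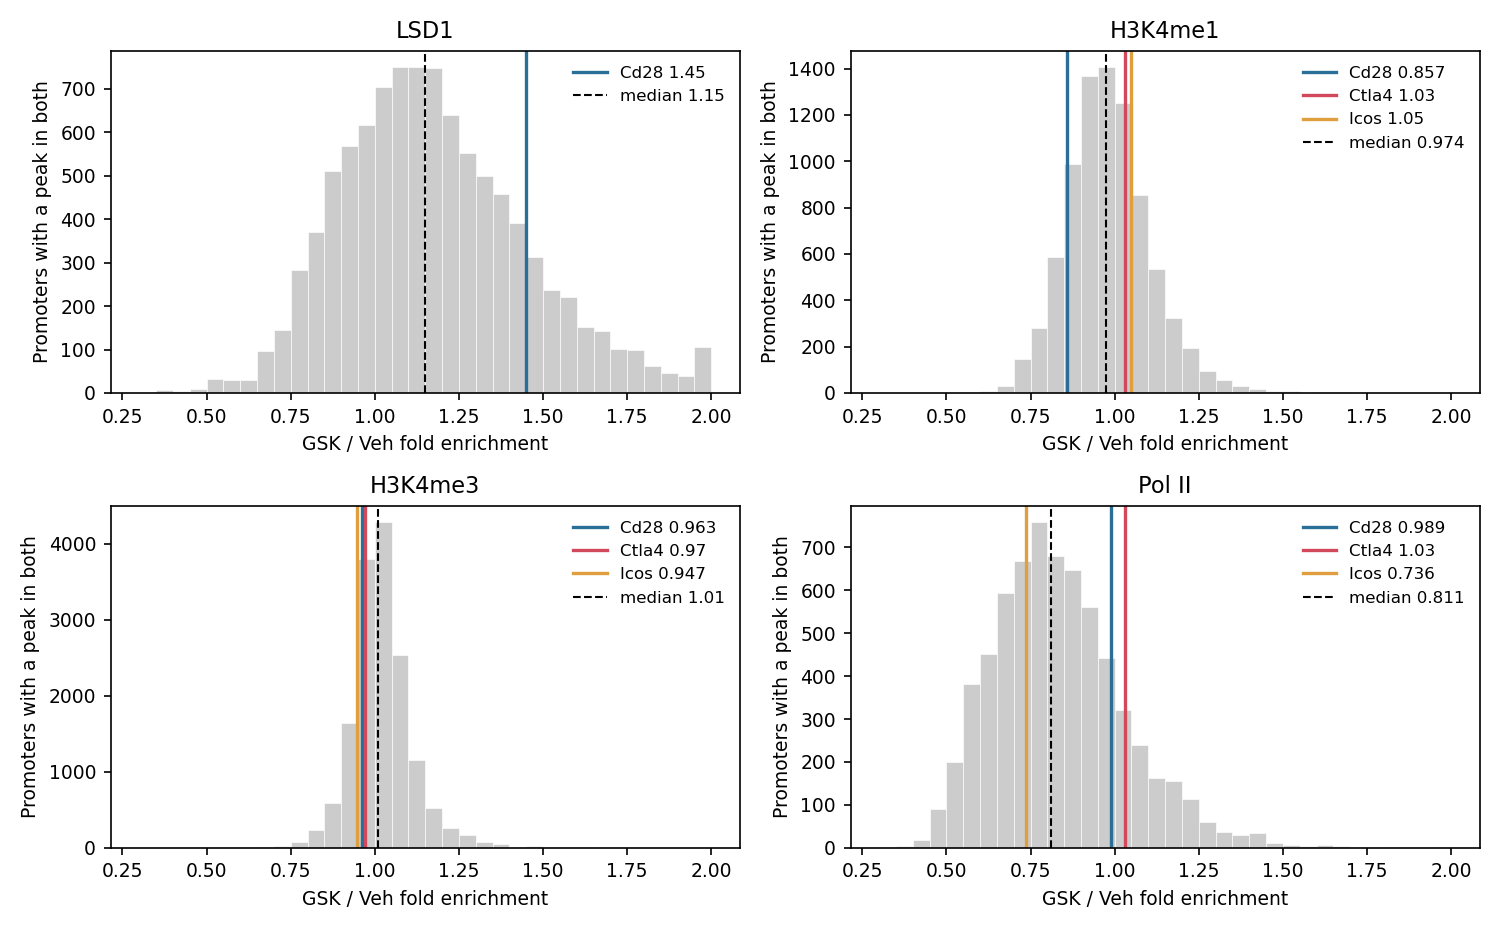
Distribution of the GSK to Veh ratio of fold enrichment over promoters with a peak in both treatments, for 4 antibodies, with the members as coloured lines and the median dashed; ratios beyond the axis are counted in the end bins. For Pol II, Cd28 (0.989) and Ctla4 (1.03) lie right of the median of 0.811 and Icos (0.736) left of it, and for H3K4me3 all 3 lie left of the median of 1.01.

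The 250 bases before the Ctla4 TSS are shown because this promoter carried Pol II and H3K4me3 and no LSD1. RefSeq's promoter table for GRCm38.p6 held 1 of the 3 members, so none is printed for Cd28 and Icos. Capitals mark the match to a motif searched on both strands; the motifs were AP-1 (TGANTCA), the NFAT core (GGAAAA), RUNX (TGTGGT), the ETS core (CGGAAG), GFI1 (AATCNNNGC), STAT5 (TTCNNNGAA) and TCF1 (CTTTGA).
Ctla4 promoter, chr1:60908775-60909024, plus strand: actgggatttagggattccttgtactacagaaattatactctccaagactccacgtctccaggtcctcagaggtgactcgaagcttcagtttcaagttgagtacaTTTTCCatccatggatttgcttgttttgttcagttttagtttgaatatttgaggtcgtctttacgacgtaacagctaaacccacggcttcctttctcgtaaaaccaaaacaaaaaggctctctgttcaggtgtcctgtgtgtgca
The single match was an NFAT core on the minus strand, at -145 to -140 bp from the TSS, and it overlapped no other motif. The NFAT core was present in 20.4% of the 32851 promoters of the table over the same 250 bases. The other motifs were present in 6.75% (AP-1), 14% (RUNX), 13.6% (ETS core), 8.87% (GFI1), 7.02% (STAT5) and 13.8% (TCF1) of promoters. G and C made up 42.4% of the Ctla4 sequence, at percentile 17.9 of the table, whose median was 52.4%.

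LSD1 had 9 peaks in the locus in Veh and 4 in GSK, and 2 of the 9 were overlapped by a GSK peak. Over all LSD1 peaks, 54.6% of those in Veh were overlapped in GSK and 57.8% of those in GSK were overlapped in Veh. Outside promoters, 1 of the 7 Veh peaks was kept (14.3%, exact 95% interval 0.361 to 57.9%), against 34.9% of the 12563 such peaks in the genome, which lies inside that interval. Intervals here cover counting error only. Among Veh peaks outside promoters with a fold between 2.86 and 4.74, the range of the 7, 22.8% of 8312 were kept.

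**Figure D4:**
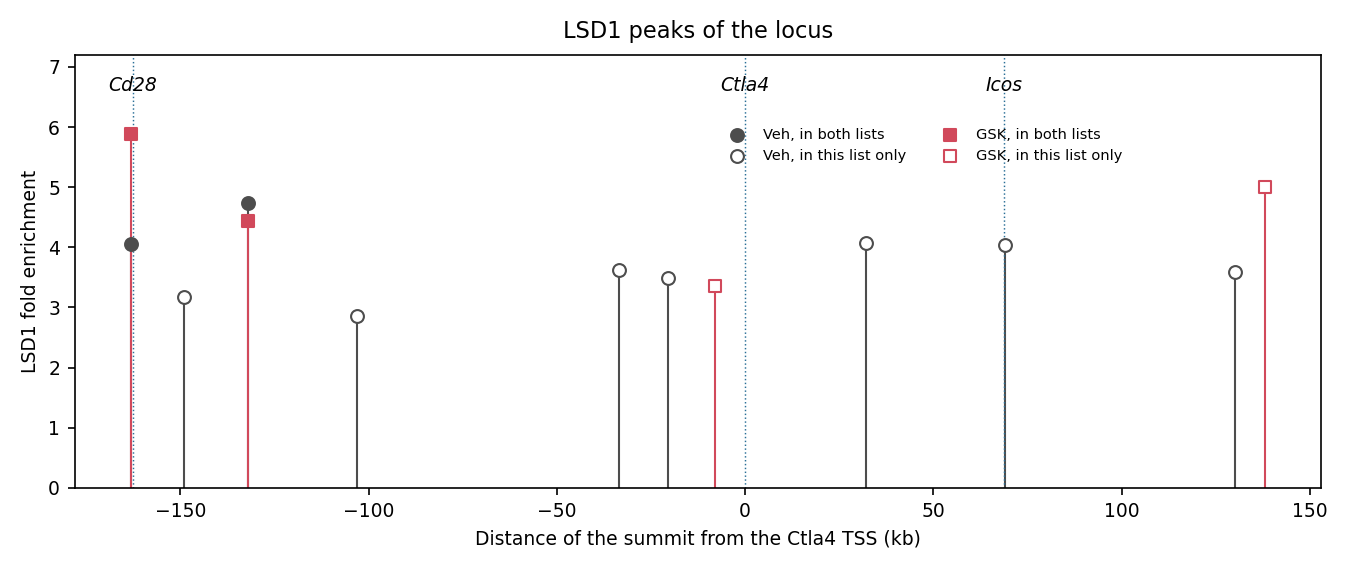
Fold enrichment of each LSD1 peak against the distance of its summit from the Ctla4 TSS in kb, with Veh as circles and GSK as squares, filled where the other treatment has an overlapping peak. The filled pairs are the Cd28 promoter, with 4.05 in Veh and 5.89 in GSK, and the peak 30.9 kb past the Cd28 TSS, with 4.74 and 4.43.

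The 6 Veh peaks that had no partner in GSK and lay outside promoters had folds of 2.86 to 4.08. The weakest, at chr1:60806173-60806452, had a fold of 2.86 (−log10 p 3.13), near the lowest −log10 p of the GSK list (3.01). The strongest were at chr1:60940632-60941206 between Ctla4 and Icos (fold 4.08, −log10 p 7.34) and at chr1:60875346-60875714 between Cd28 and Ctla4 (fold 3.63, −log10 p 6.43). Both of these sat on H3K4me1 and H3K4me2 in Veh. The others were at chr1:60888158-60888549, 20.6 kb before the Ctla4 TSS (fold 3.49), at chr1:61039397-61039702, 61.6 kb past the Icos TSS (fold 3.59), and the intron 1 peak of Cd28. H3K4me1 was present in both treatments at 4 of these 6 places, the exceptions being the weakest peak and the one in intron 1 of Cd28, beside 35% of the 8180 such LSD1 peaks in the genome.

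The peak outside promoters that was listed in both treatments (Veh chr1:60777113-60777426, GSK chr1:60777007-60777342) had a fold of 4.74 in Veh and 4.43 in GSK, and no histone mark of the lists overlapped it. The GSK list had 2 peaks of its own, at chr1:60900970-60901301 (fold 3.35, −log10 p 4.35), inside the processed pseudogene Rpl18-ps1, and at chr1:61046662-61047102 (fold 5.01, −log10 p 9.41), 69.0 kb past the Icos TSS. The latter overlapped a Veh H3K4me1 peak (fold 1.99) that was not listed in GSK.

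The 101 bases around LSD1 summits outside promoters are shown where the reference marks at least 50% of them as repeat. This held for 2 of the 7 Veh and 2 of the 3 GSK summit windows, beside 24.5% of all Veh and 27.3% of all GSK LSD1 windows outside promoters. The place found in both treatments is given once, at its Veh summit. Sequences are from the plus strand of GRCm38.p6, and capitals mark matches to the 7 motifs above.
Both treatments, Veh summit, chr1:60777237-60777337: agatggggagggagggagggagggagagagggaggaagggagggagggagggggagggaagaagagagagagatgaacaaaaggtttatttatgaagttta
GSK only, past Icos, chr1:61046914-61047014: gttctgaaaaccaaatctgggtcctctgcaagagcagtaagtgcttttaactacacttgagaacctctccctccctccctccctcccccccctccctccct
Veh only, before Ctla4, chr1:60888409-60888509: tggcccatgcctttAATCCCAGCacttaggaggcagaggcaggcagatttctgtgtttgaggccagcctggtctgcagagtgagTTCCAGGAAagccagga
The first sequence holds an unbroken run of 69 purines and the one past Icos a run of 38 pyrimidines, while the longest such run in the one before Ctla4 is 7 bases. Runs of at least 30 such bases were found in 1.52% of all Veh and 2.02% of all GSK LSD1 summit windows outside promoters. The reference marks 80.2% of the first sequence as repeat, 91.1% of the one past Icos and 100% of the one before Ctla4. Of the 3 GSK peaks outside promoters, 2 thus had their summit window on a run of at least 30 purines or pyrimidines. The remaining one lay in the pseudogene named above. The Veh peak at the shared place lay on the same run of 69 purines. How many LSD1 peaks of the genome lie in pseudogenes was not counted. The authors kept uniquely mapped reads and removed duplicates, and the part of sequence content in the calls was not tested. Repeat content was looked at after the sequences were seen.

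No motif matched the first sequence or the one past Icos. In the one before Ctla4, GFI1 matched at -36 to -28 bp from the summit and STAT5 at 34 to 42 bp, with no overlap between them. GFI1 was found in 4.72% and STAT5 in 3% of all Veh LSD1 summit windows.

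H3K4me1, the mark of enhancers, was the most frequent of the locus, with 26 peaks in Veh over 27.2 kb and 32 in GSK over 39.1 kb. Its density was 73.5 peaks per Mb in Veh and 90.4 in GSK, beside 12.6 and 14.8 over the genome. In Veh, 24 of 26 peaks were overlapped by a GSK peak (92.3%, interval 74.9 to 99.1%; 87.8% over all peaks), and in GSK, 22 of 32 by a Veh peak (68.8%, interval 50.0 to 83.9%; 75.2% over all). Merged over both treatments, the peaks made 34 regions, with 22 in both, 2 in Veh only and 10 in GSK only. Over the genome, 22.6% of H3K4me1 regions were in GSK only and 9.47% in Veh only.

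The 10 GSK-only regions were spread over the locus, with 4 between Cd28 and Ctla4, 3 between Ctla4 and Icos and 3 past Icos. Their folds were 2.04 to 4.50 and their −log10 p were 5.85 to 8.82. The highest fold was at chr1:60960508-60961185, 17.1 kb before the curated Icos TSS, and it held the start of a predicted Icos transcript of RefSeq (position 60960773). The smallest −log10 p, 5.85, was at chr1:61002916-61003589, 25.3 kb past that TSS. The region at chr1:60778549-60778829, with the highest −log10 p, lay beside the annotated start of the non-coding gene 2310016D23Rik. The Veh-only regions were at chr1:60973661-60974071 (fold 2.84), 4.05 kb before the Icos TSS, and at chr1:61046942-61047623, where GSK had the LSD1 peak named above.

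In the 22 regions found in both treatments, the fold was lower in GSK in 15, with a median ratio of 0.968, and over the genome 63.6% were lower, with a median of 0.961. The peaks were wider in GSK in 19 of the 22, with a median ratio of covered bases of 1.1, while 62.7% were wider over the genome, with a median of 1.08. The widest H3K4me1 peak of Veh was at chr1:60873418-60875924 (2507 bp), in a region 34.4 kb before the Ctla4 TSS, where the GSK peak was 2609 bp wide. The widest of GSK, at chr1:60897855-60900464 and 9.88 kb before that TSS, was of almost the same width (2610 bp). In this last region Veh had 2 peaks of 1280 bp in sum with a fold of up to 3.75, and GSK a single one with a fold of 2.66.

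**Figure D5:**
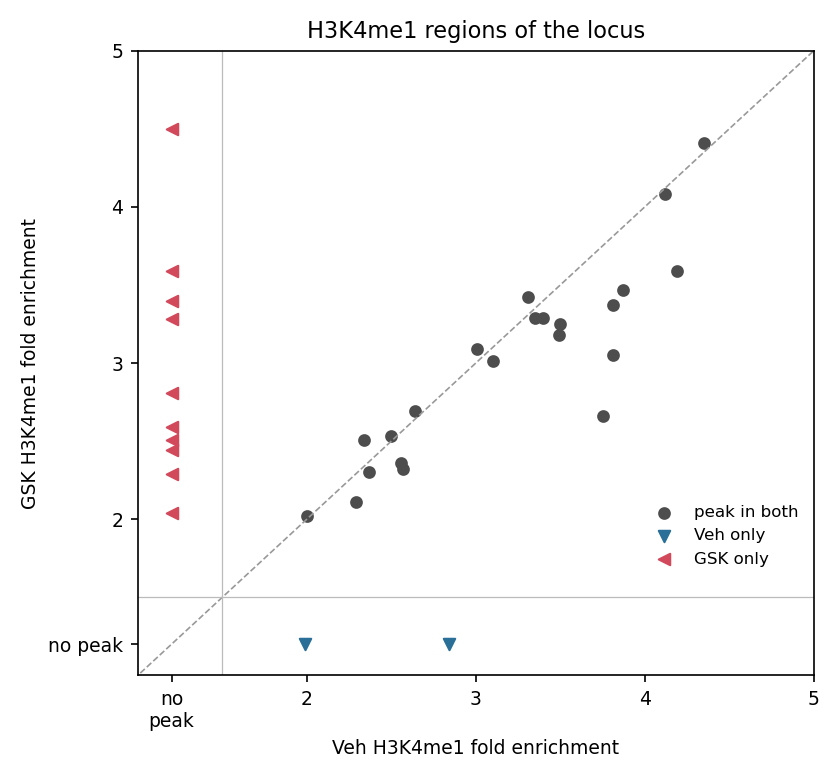
GSK against Veh fold enrichment of the 34 merged H3K4me1 regions, with regions of a single treatment in the margins marked no peak and the dashed line at equal values. The 22 shared regions follow the line, 15 of them below it, and the 10 GSK-only regions reach a fold of 4.50.

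Enhancers were rebuilt here after the study's definition, as H3K4me1 or H3K4me2 regions with no H3K4me3 and more than 2.5 kb from a curated TSS, and the locus held 31 of 26676. The rebuilt set differs in size from the study's own. LSD1 was present at 5 of the 31 in Veh and at 1 in GSK (16.1%, interval 5.45 to 33.7%, and 3.23%, interval 0.0816 to 16.7%), beside 17.5% and 12% of all enhancers. 1 of the 5 in Veh was a region at the far edge of the locus, whose LSD1 peak lay just outside. The GSK one was the place past Icos described above. H3K27ac was present at 2 of the 31 in both treatments, beside 3.35% of all enhancers in Veh and 0.705% in GSK.

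Both enhancers with H3K27ac flank Ctla4. The one 9.88 kb before its TSS carried H3K4me1 and H3K27ac in both treatments and H3K4me2 in Veh. Its H3K27ac fold was 3.43 in Veh (chr1:60899025-60899864) and 4.27 in GSK (chr1:60899115-60899722), with −log10 p of 7.25 and 7.00. A higher fold in GSK was what most shared H3K27ac regions of the genome showed, with a median GSK to Veh ratio of 1.18 and 9.7% lower in GSK. The one 31.5 kb past the TSS, at chr1:60939291-60941712, was the single enhancer of the locus with LSD1, H3K4me1, H3K4me2 and H3K27ac in Veh, a combination found at 0.615% of all enhancers (164). In GSK it kept H3K4me1 and H3K27ac.

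This enhancer between Ctla4 and Icos had the strongest H3K27ac peak of the locus in Veh, and the weakest of the 3 in GSK. The fold was 4.44 in Veh (chr1:60940587-60941612, −log10 p 16.3). In GSK it was 3.95 (chr1:60940817-60941673, −log10 p 6.95). Of all H3K27ac regions found in both treatments, 9.7% had a lower fold in GSK and 12.7% had a higher −log10 p in GSK. The lower fold at this enhancer was thus unlike most shared regions, while its lower −log10 p was like most of them. H3K4me1 at this enhancer had a fold of 3.01 in Veh and 3.09 in GSK, with −log10 p of 10.8 and 14.

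Another H3K27ac site, 28.7 kb before the Ctla4 TSS, carried H3K4me3 and no H3K4me1 in either treatment. H3K4me3 there had a fold of 3.68 in Veh (chr1:60880223-60880768) and 3.50 in GSK (chr1:60879936-60880679), and H3K27ac had 2.82 and 4.57. The H3K27ac fold was higher in GSK at most shared regions of the genome too, with a median ratio of 1.18. GENCODE M21 places the start of a transcript, Gm38137, at position 60880338, inside the H3K4me3 peak of both treatments. No Pol II peak was listed there. The single Pol II peak outside promoters, at chr1:60822318-60822514 in Veh (fold 3.10, −log10 p 3.96), lay on an H3K4me1 region shared by both treatments.

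In all, 3 of the 5 Veh H3K27ac peaks were overlapped in GSK and all 3 GSK peaks were overlapped in Veh (35.2% and 95% over all H3K27ac peaks). The 4 H3K4me3 peaks of each treatment were all shared (97.3% of Veh and 91.1% of GSK peaks over the genome), and 3 of 4 Veh Pol II peaks and all 3 of GSK were shared (39.1% and 39.6% over all Pol II peaks). The shared Pol II peaks were all at promoters, where sharing was the usual state. Of all promoters, 8928 had Pol II in Veh, 7586 in GSK and 6689 in both. None of the 3 Veh H3K4me2 peaks was overlapped in GSK (55.3% over all). These 3 had folds of 3.81, 3.81 and 3.66 and −log10 q of 4.40, 3.04 and 3.67, against a lowest −log10 q of 3.03 in the GSK list, and none was left when the Veh list was cut to the length of the GSK list. Over all antibodies, 36 of 51 Veh peaks (70.6%, interval 56.2 to 82.5%) and 34 of 46 GSK peaks (73.9%, interval 58.9 to 85.7%) were overlapped, beside 67.7% and 71.0% over the genome.

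The genes whose promoters were most like each member were found by the distance between the percentiles of fold in the 12 lists, over 15483 genes with a peak in any of them. A list without a peak counted as percentile 0, so that a weak peak and no peak lay close together. For Cd28 they were Peli1 (distance 44.7 percentile points), Icam1 (54.7) and Rhob (55.4). For Ctla4 they were Sema4a (25.8), Rex2 (26.2) and Cdc42se1 (26.8), and for Icos they were Uck2 (16.3), Rps4x (21.5) and Ier3 (23.8). Sema4a had the same presence or absence of a peak as Ctla4 in all 12 lists, and it was 1 of 26 genes to do so. Rex2, the next, had the same call in 7, and its only peaks were in the 2 Pol II lists. For Icos, 7 genes had the same calls in all 12 lists. Peli1 had the same call as Cd28 in 11.

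Around the 3 receptors, 39 genes of the same signalling system were read in the same way, namely 8 ligands and related receptors, 21 signalling proteins and 10 proteins of receptor traffic or RNA control. H3K4me3 was present at 37 of the 39 in both treatments (49.6% of all genes), the exceptions being Pdcd1lg2, a ligand of PD-1, and Trat1, a T-cell adaptor. LSD1 was present at 27 in both treatments (31.9% of all genes), at 2 in Veh only (4.44%) and at 1 in GSK only (9.74%). Like Icos, Pik3ca (fold 4.43), a catalytic subunit of PI3-kinase, and Ppp2ca (fold 5.28), the catalytic subunit of the phosphatase PP2A, had LSD1 in Veh only. Itch (fold 4.96), a ubiquitin ligase, had it in GSK only.

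Most genes of the genome had no Pol II promoter peak. Those with one numbered 5759 in both treatments, 1918 in Veh only and 769 in GSK only. Of the 39 genes, 25 had Pol II in both treatments, beside 22% of all genes. Another 5 had it in Veh only (7.33% of all genes) and 1 in GSK only (2.94%). The 5 were Pdcd1, which encodes the inhibitory receptor PD-1, with a Veh fold of 6.04, Ap2m1, a subunit of the clathrin adaptor that internalises CTLA4, with 4.83, the transcription factor gene Nfatc2 with 4.61, the adaptor gene Grb2 with 4.43 and the kinase gene Akt1 with 3.48. Prkcq, the kinase PKC-theta downstream of CD28, had Pol II in GSK only, with a fold of 2.65.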

How the data were processed

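ChIP-seq was made in 16 samples: 12 ChIP libraries, 1 per antibody and treatment, and 4 inputs with no peak list used here. Per the labels and the methods of the study, the authors aligned reads with Bowtie2 to mm10 and called peaks with MACS2 after keeping unique mappings and removing duplicates, as narrow peaks for LSD1 and Pol II and broad peaks for the histone marks. The study's reporting summary names input as the control. The deposited lists give, per peak, a fold enrichment (a ratio over control), −log10 p and −log10 q, and a score derived from −log10 p or −log10 q; the score was not analysed. The authors called each library separately, and the values carry no read counts.

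Peak starts were converted to 1-based positions. Promoters were 1 kb on either side of each curated TSS of RefSeq GRCm38.p6. Peaks of the same antibody were shared with at least 1 bp in common. A percentile is the share of promoters with a peak (or peaks of the list) at or under the value. Exact 95% intervals are Clopper-Pearson and cover counting error only. Without replicates no test was run. Analyses used the Python libraries pandas 2.3.3, numpy 2.4.6 and scipy 1.17.1, and all 5 checks on simulated peaks recovered what they were made with. The members and lists were chosen with earlier results of these data known. By rule, every LSD1, Pol II and H3K27ac peak of the locus, the H3K4 peaks of a single treatment, the widest peaks, the 3 genes most alike each member, and the co-signalling genes with LSD1 or Pol II in a single treatment were described. Some summit sequences are not reported here. Alternatives tried were the promoter width, the TSS annotation, the flank, the overlap rule, a −log10 q of at least 5, and lists of equal length.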

Additional observations from a re-analysis of the deposited data

How the results depend on the processing

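Of 44 comparisons of the counts and shares of the locus with an alternative, 40 stayed within 1.5 times the count or within the interval of the share. The exceptions all came from keeping peaks with a −log10 q of at least 5, which leaves fewer peaks. The locus then held 22 Veh and 27 GSK peaks, with the longer list in GSK, 86.4% of the Veh peaks were overlapped in GSK, and 0% of the Veh LSD1 peaks outside promoters were kept, since the GSK partner of the single one left had a −log10 q of 4.57. Under the same setting the Veh LSD1 peaks at the Cd28 and Icos promoters were not in the list, while the GSK peak at Cd28 was. At a −log10 q of at least 5, 9 pairs of gene and antibody had a promoter peak in Veh and 10 in GSK. This order is the reverse of the main 12 and 10. With lists of equal length, the pairs were 11 in Veh and 10 in GSK. Without the H3K4me2 and H3K27ac lists, an alternative chosen after seeing the data, each treatment had 43 peaks in the locus. With GENCODE M21 starts, also added later, the pairs stayed at 12 and 10. Ranked by −log10 p in place of fold, the difference between the GSK and Veh promoter percentiles of H3K4me1 rose from 2.72 to 41.9 points at Icos and from 7.77 to 29.7 at Ctla4. That of Pol II at Ctla4 fell from 23.9 to 10.1. At Cd28 the difference shrank for LSD1, from 38.6 to 25.2, and for H3K4me1, from -22.3 to -12.3. No sign changed at any member and antibody, and the cause was not tested. No paired analysis was possible because each antibody and treatment has 1 library and the numbered samples are inputs without peak lists.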
